A study of Rattus norvegicus with 36 samples.

Results

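Collagen chain genes encode the polypeptide chains from which every collagen is assembled. In the deposited count table of rat lung, 28 of the 27308 genes carried the name of such a gene. They were taken by name alone: each row was kept whose gene name, once a suffix for predicted or mapped genes was removed, consisted of Col, a number, the letter a and a number. By class, 10 were fibrillar (Col1a1, Col1a2, Col2a1, Col3a1, Col5a1, Col5a2, Col5a3, Col11a1, Col11a2 and Col27a1), 4 belonged to the basement membrane network of type IV (Col4a1, Col4a2, Col4a4 and Col4a5), 3 to type VI (Col6a1, Col6a2 and Col6a3), 6 to the FACIT class (Col9a1, Col9a2, Col9a3, Col12a1, Col14a1 and Col16a1) and 2 to the multiplexins (Col15a1 and Col18a1). Single members stood for the short-chain network (Col8a1), the transmembrane collagens (Col17a1) and the anchoring fibril (Col7a1). A RefSeq gene table lists 44 collagen symbols for the rat, so these 28 are a part of the family. Rows of 4 further collagen genes carried other names and are described at the end. Only 11639 of the 27308 genes could be matched to a current symbol, so the table may hold collagen rows that went unrecognized.

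A collagen molecule is a triple helix of alpha chains, and many types need chains from different genes, such as the alpha-1 and alpha-2 chains of types I and IV. Fibrillar collagens bear tension in the interstitium and in vessel walls, type IV forms the sheet under endothelium and epithelium, type VI makes beaded microfilaments, FACITs sit on fibril surfaces, and the multiplexins link basement membranes to the matrix around them. In the lung, chronic hypoxia is known for remodelling of the pulmonary arteries, in which vessel wall cells lay down matrix.

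All libraries came from lung of huSlc39a12 rats, a knock-in line made on the Sprague Dawley background whose own Slc39a12 (it encodes ZIP12, a zinc transporter) gave way to the human form. The rats were adult, age-matched and of either sex, with a body weight of 200 to 240 g, and they formed 3 arms of 12 libraries, 6 male and 6 female each. One arm stayed in normoxia. The hypoxia IgG arm spent 2 weeks at normal pressure with an inspired oxygen of 10% and received IgG control antibody, and the hypoxia APL-9796 arm had the same exposure with APL-9796, an antibody against ZIP12. Both antibodies were given intraperitoneally at 10 mg/kg, from 48 h ahead of the exposure and then at intervals of 3 days. No antibody is named for normoxia, and in any comparison with that arm the exposure and the IgG cannot be told apart. The labels do not say whether each library was a separate animal, and p-values measure only the spread between libraries, which may be technical.

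Totals ran from 6.07 to 20.8 M counts per library, with a median of 11.1 M. The 10 lung markers (of alveolar type II and type I, club and endothelial cells) all had counts and summed to 21179 CPM or more in each library, where CPM relates a gene's counts to the scaled total of the library. Female normoxia 9 and female normoxia 8 stood apart: their summed collagen level was 2672 and 4284 CPM, against 6493 to 11854 CPM in the 10 other normoxic libraries. The lung marker sum of female normoxia 9 was 56049 CPM, against 25243 to 33580 CPM in those 10. Counts of members against normoxia, and the differences of the members that passed, are therefore also given without both libraries. CPM is not corrected for transcript length, so levels are compared between libraries and never between genes.

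Start regions are shown for 3 loci: the stretch shared by Col4a1 and Col4a2, which lie head to head and whose levels differed between arms by much the same amount, the region before Col4a4, a type IV gene that passed the test in no comparison, and that before Col15a1, the member with the widest difference in hypoxia with IgG. Sequences are from RefSeq on the build GRCr8, 5′ to 3′, and capitals mark the match to a motif.
between Col4a2 and Col4a1, chr16:84885521-84885596, plus strand: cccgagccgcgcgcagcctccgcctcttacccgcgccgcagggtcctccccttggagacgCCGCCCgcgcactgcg
Col4a4 upstream, chr9:91323578-91323827, minus strand: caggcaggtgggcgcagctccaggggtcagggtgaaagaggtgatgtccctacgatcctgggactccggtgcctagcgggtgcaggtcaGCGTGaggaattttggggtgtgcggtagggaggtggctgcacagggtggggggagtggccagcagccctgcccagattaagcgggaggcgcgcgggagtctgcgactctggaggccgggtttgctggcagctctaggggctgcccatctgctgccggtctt
Col15a1 upstream, chr5:66297296-66297545, plus strand: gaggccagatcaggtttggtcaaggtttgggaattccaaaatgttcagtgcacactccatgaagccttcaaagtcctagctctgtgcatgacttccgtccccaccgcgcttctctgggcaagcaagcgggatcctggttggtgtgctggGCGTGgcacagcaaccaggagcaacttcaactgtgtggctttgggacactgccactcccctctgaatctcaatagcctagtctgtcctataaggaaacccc
Only 76 bases separate the starts of Col4a2 and Col4a1. Motifs searched on both strands were the box known by its letters CCAAT, the GC box with the letters GGGCGG, the TATA box with the letters TATAAA, and both forms of the core of hypoxia response elements, with the letters ACGTG in the first form and GCGTG in the second. In the windows described here no match overlapped another. The stretch between Col4a2 and Col4a1 held 1 match, to GGGCGG read on the other strand, and 18.1% of 33469 RefSeq promoters held that motif in a window of the same length. The 250 bases before Col4a4 and those before Col15a1 each held 1 match, to GCGTG, which 25.9% of promoters held in 250 bases. That share was 34% for CCAAT, 30.5% for GGGCGG, 12.9% for TATAAA and 16.6% for ACGTG, of which neither window held a match. Of the 28 members, 21 had a promoter entry in that table.

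The first comparison asked which collagen genes differed between hypoxia with IgG and normoxia. Of the 28 members, 26 had counts high enough to be tested, and 9 were higher and 0 lower (edgeR quasi-likelihood test, Benjamini-Hochberg FDR under 0.05 over 15570 genes). Among all genes tested, 6.31% were higher and 6.19% lower. The log2 difference lay above 0 for 25 of the 26, with a median of 0.35, beside a median of −0.02 over all genes. By class, 3 of 4 basement membrane chains, 2 of 2 multiplexins, 3 of 10 fibrillar chains, 1 of 3 type VI chains and 0 of 6 FACITs were higher, and so were none of the 3 single-member classes. Without female normoxia 8 and 9 the count was again 9, made up of the same genes, where 7.12% of all genes were higher and 4.17% lower. In whole tissue, more cells of a type and more RNA per cell cannot be told apart.

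Together the 28 members made up 0.790% ± 0.268 of counts in normoxia, 1.21% ± 0.137 with hypoxia and IgG and 1.25% ± 0.175 with hypoxia and APL-9796 (SD, n = 12). In CPM the normoxic sums ran from 2672 through a median of 8179 to 11854, the IgG sums from 9576 through 11567 to 14684, and the APL-9796 sums from 9693 through 12419 to 15590. The arms overlapped: 5 of 12 IgG libraries and 7 of 12 APL-9796 libraries lay above the highest normoxic one, male normoxia 6. The basement membrane sum parted the arms further, since 11 of 12 IgG and 12 of 12 APL-9796 libraries exceeded the highest normoxic sum of 3783 CPM, whereas the type VI sum of 0 of 12 IgG libraries and 2 of 12 APL-9796 libraries exceeded its normoxic maximum of 1961 CPM.

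**Figure D1:**
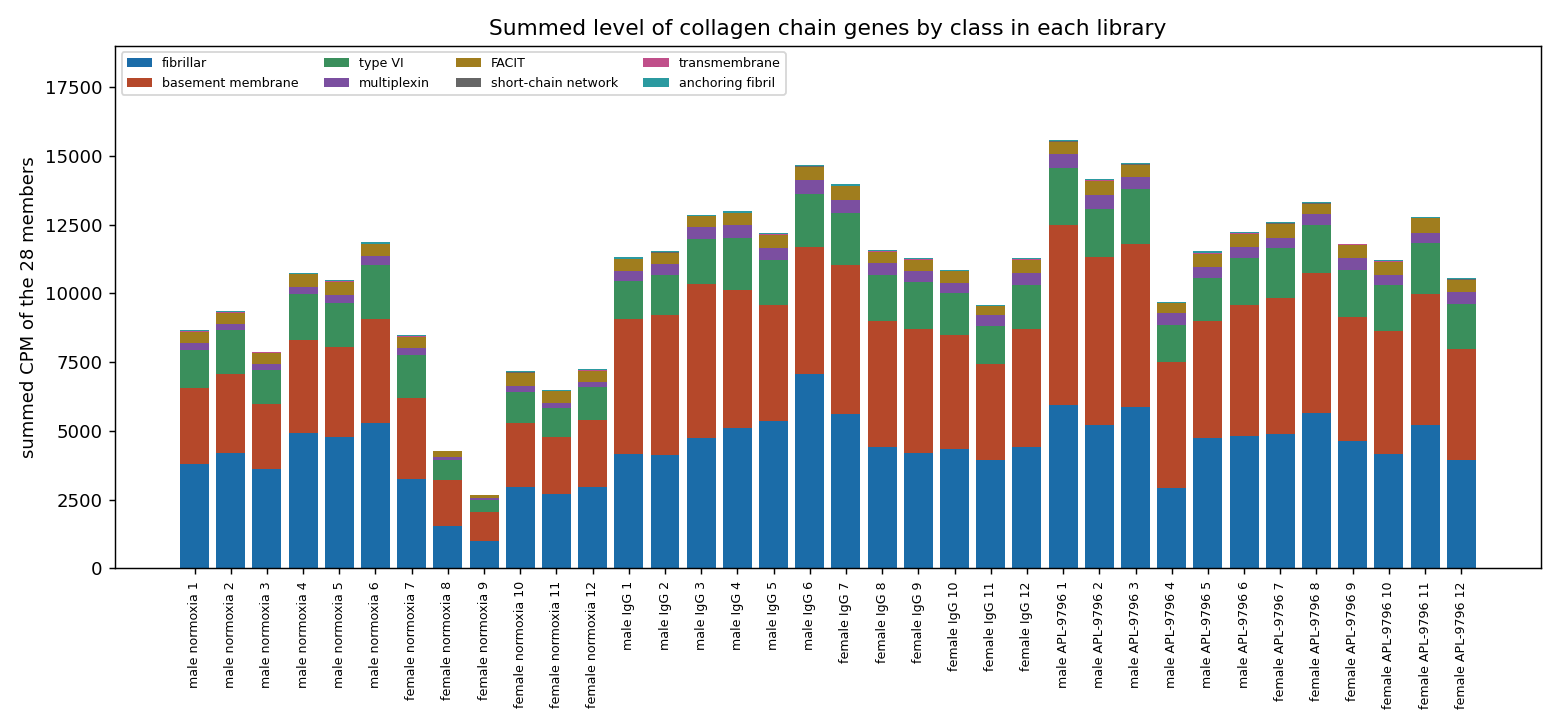
Stacked bars give the summed level (CPM) of the collagen chain genes by class in each of the 36 libraries, grouped by arm. Female normoxia 9 (2672 CPM) and 8 (4284 CPM) are the lowest bars, and male APL-9796 1 (15590 CPM) is the highest.

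Basement membrane chains. Col4a1 (rCG_43378) and Col4a2 (rCG_43142), the alpha-1 and alpha-2 chains of the type IV network found in nearly all basement membranes, rose about equally. Col4a1 had a lowest, median and highest level of 347, 1066 and 1664 CPM in normoxia and of 1650, 2246 and 2935 CPM in hypoxia with IgG. All but 1 of the IgG libraries, female IgG 11, lay above the highest normoxic one. The Col4a1 difference was log2 1.17 ± 0.13 (SE, n = 12 per arm), a fold of 2.25, with an FDR of 2.1e-08 in edgeR. For Col4a2 the lowest, median and highest levels were 163, 735 and 1160 CPM in normoxia and 1110, 1502 and 1794 CPM with IgG. The arms touched only through female IgG 11 and female IgG 10, since 10 of 12 IgG libraries exceeded every normoxic one. The Col4a2 difference was log2 1.09 ± 0.15, a fold of 2.13 (edgeR FDR = 1.9e-06). The log2 differences were 1.07 for Col4a1 and 0.97 for Col4a2 without female normoxia 8 and 9. The ratio of Col4a1 to Col4a2 counts was 1.5 ± 0.254 in normoxia, 1.53 ± 0.0996 with IgG and 1.57 ± 0.154 with APL-9796 (SD, n = 12), so the pair kept its proportion within the spread between libraries.

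Col4a5 (rCG_23136) and Col4a4 (rCG_23748) encode chains of another type IV network, though not the only other one. It joins the alpha-3, alpha-4 and alpha-5 chains and is known in the lung from the alveolar basement membrane. Levels of Col4a5 ran from 122 through 240 to 278 CPM in normoxia and from 223 through 282 to 342 CPM in hypoxia with IgG, with 7 of 12 IgG libraries above the normoxic maximum. Col4a5 rose by a log2 of 0.34 ± 0.08 (fold 1.26, edgeR FDR = 0.00459), and by 0.26 without female normoxia 8 and 9. Those of Col4a4 ran from 431 through 596 to 680 CPM in normoxia and from 484 through 610 to 662 CPM with IgG. No IgG library exceeded the normoxic range of Col4a4, and its log2 difference was 0.02 ± 0.07, with a 95% interval from −0.11 to 0.16 that leaves out differences as wide as those of Col4a1 and Col4a2. Within the 4 type IV chains the order of the log2 differences was thus Col4a1, Col4a2, Col4a5 and Col4a4, and the intervals of Col4a1 (0.91 to 1.43) and Col4a2 (0.79 to 1.4) overlapped each other but not those of Col4a5 (0.17 to 0.50) and Col4a4.

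**Figure D2:**
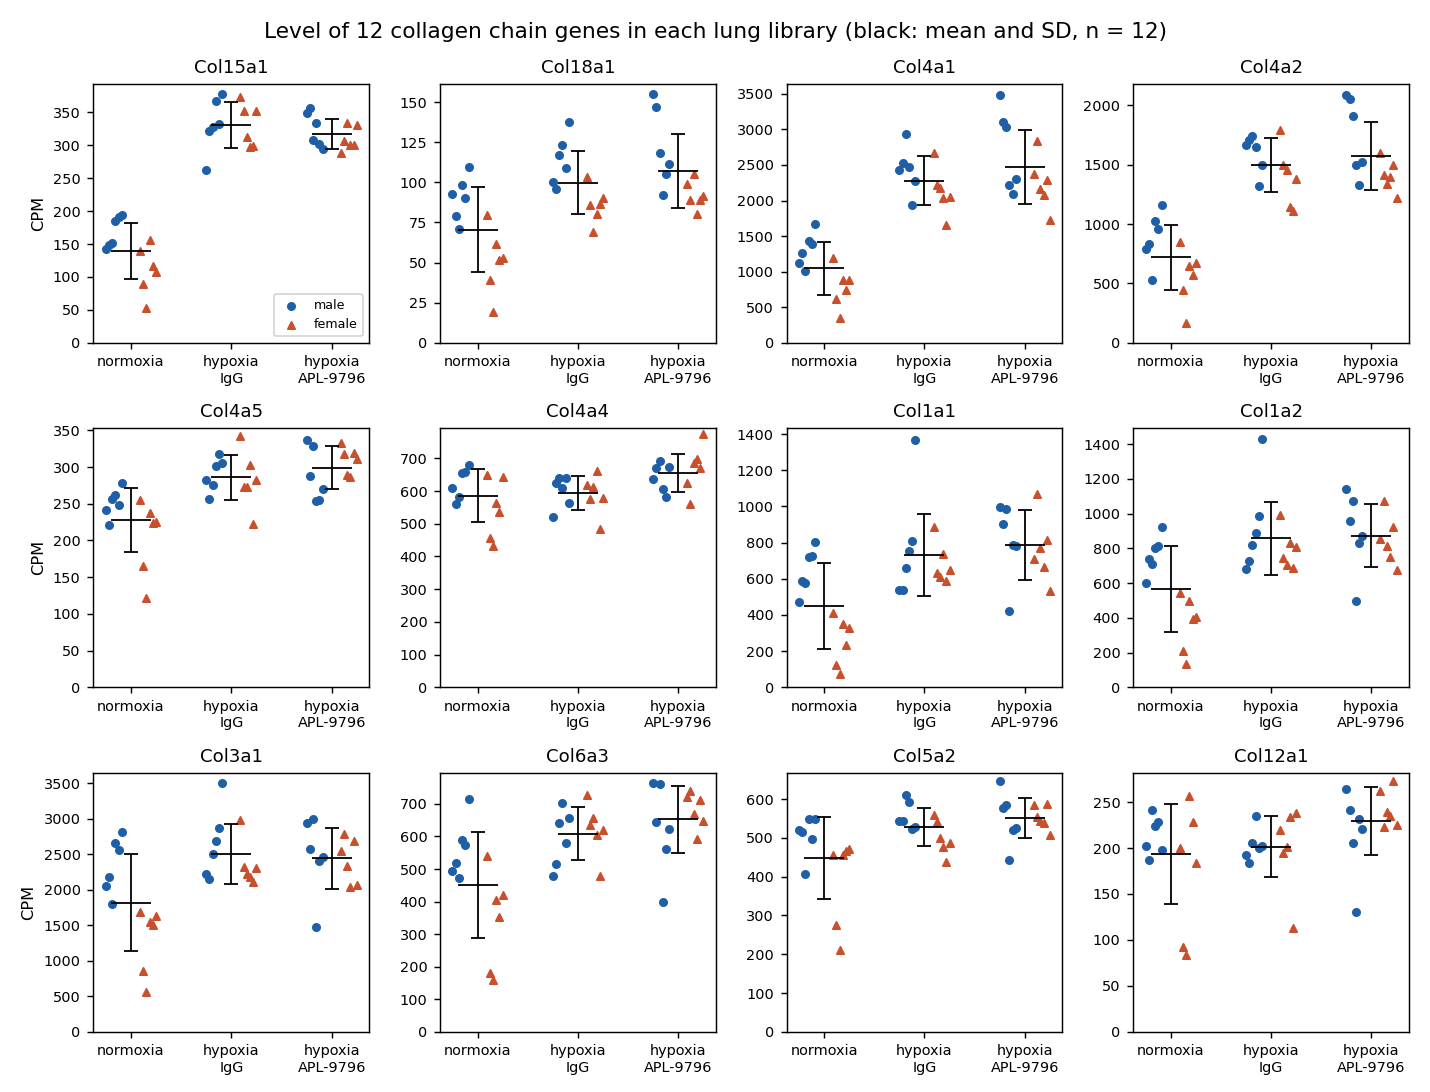
Levels (CPM, axes from 0) of 12 collagen chain genes in each library by arm, with males as circles, females as triangles, and the mean and SD of 12 libraries in black. Col15a1 shows no overlap between normoxia (up to 195 CPM) and hypoxia with IgG (from 262 CPM), whereas the Col4a4 arms cover each other.

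Multiplexins. Col15a1 (rCG_54988), whose product lies in the zone between basement membranes and the fibrils around them, and Col18a1 (rCG_60896), a vascular and epithelial basement membrane collagen and the source of the fragment endostatin, both rose. Col15a1 ran from 53.4 through 146 to 195 CPM in normoxia and from 262 through 330 to 377 CPM in hypoxia with IgG. Each of the 12 IgG libraries lay above every normoxic one. Its log2 difference was 1.28 ± 0.10, the widest among the members (fold 2.42, edgeR FDR = 9.4e-12), and 1.18 without female normoxia 8 and 9. Levels of Col18a1 were 19.3, 75.1 and 110 CPM (lowest, median, highest) in normoxia and 69.2, 98.1 and 138 CPM with IgG, where 3 of 12 libraries exceeded the normoxic maximum. Col18a1 rose by 0.55 ± 0.13 on the log2 scale (fold 1.46, edgeR FDR = 0.00273), and by 0.43 with those libraries left out. In sequencing run A alone, the largest of the 3 runs inferred from read file names, the Col18a1 value was 0.53 and its FDR 0.111.

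Fibrillar chains. The chains of type I and type III, the bulk collagens of interstitium and vessel wall, rose with the sexes weighted equally. The chains of types V, XI and XXVII did not pass the test. Taken by sex, no fibrillar chain passed in males, as described below. Col1a1 (rCG_33732) had levels of 72.6, 443 and 802 CPM (lowest, median, highest) in normoxia and 537, 654 and 1369 CPM in hypoxia with IgG. The ranges of Col1a1 overlapped, with 3 of 12 IgG libraries above the normoxic maximum and male IgG 6 far above the rest. The difference was log2 0.85 ± 0.20 (fold 1.80, edgeR FDR = 0.00296), and 0.68 without female normoxia 8 and 9. Col1a2 (rCG_41018), its partner in type I, ran from 136 through 574 to 925 CPM in normoxia and from 681 through 814 to 1427 CPM with IgG. Again 3 of 12 IgG libraries stood above normoxia. The Col1a2 rise was 0.70 ± 0.16 on the log2 scale (fold 1.62, edgeR FDR = 0.00211) and 0.55 without these libraries. The ratio of Col1a1 to Col1a2 counts was 0.753 ± 0.123 in normoxia, 0.843 ± 0.0572 with IgG and 0.897 ± 0.0589 with APL-9796, values that overlap within their spread.

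Col3a1 (rCG_22285), the chain of the type III homotrimer of distensible tissue, ran from 557 through 1742 to 2816 CPM in normoxia and from 2110 through 2318 to 3505 CPM with IgG. Only the lower end of the range was empty in hypoxia, as 3 of 12 IgG libraries exceeded the highest normoxic one. Its rise was log2 0.52 ± 0.13 (fold 1.44, edgeR FDR = 0.00608), and 0.40 without female normoxia 8 and 9. In run A alone the rises of Col1a1 (0.80, FDR = 0.0907), Col1a2 (0.67, FDR = 0.0651) and Col3a1 (0.51, FDR = 0.0856) kept their size and missed the threshold of edgeR. The type V chains, which nucleate type I fibrils, had log2 differences of 0.25 ± 0.09 (Col5a2, FDR = 0.0648), 0.29 ± 0.16 (Col5a1) and 0.14 ± 0.23 (Col5a3). Col27a1 and Col11a2 were at 0.12 and 0.10. Col11a1, a cartilage fibril chain, had 0.87 ± 0.35 (FDR = 0.10) at levels of at most 3.55 CPM, the highest being male IgG 6.

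Col2a1, the main chain of cartilage collagen, failed the filter on low counts: it had 0 counts in 26 of 36 libraries, a count that allows up to 0.144 to 0.494 CPM depending on the library. Its highest level was 7.94 CPM (94 counts) in male IgG 6, followed by 5.55 CPM in male IgG 5 and at most 0.638 CPM in any other library. The same libraries were highest for 4 cartilage markers, Acan (the aggrecan core protein), Matn1, Hapln1 and Cnmd, whose levels were 2.20, 1.69, 0.507 and 0.338 CPM in male IgG 6 and 1.30, 1.06, 0.354 and 0.236 CPM in male IgG 5. In each of the other 34 libraries these markers stood at 0.193 CPM or less. They were among the 7 of 10 cartilage markers that failed the filter on low counts. Of the 3 tested, 0 were higher and 1 was lower in hypoxia with IgG, Cytl1, which makes up most of the marker sum (24.5 to 48.1 CPM in normoxia, at most 36.4 CPM with IgG). The part of cartilage in the collagen levels of these libraries was not tested. The count of members higher with IgG was 9 without male IgG 6 and 10 without male IgG 5, and the share of all genes was not recorded for these fits.

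Type VI chains. The 3 chains form 1 heterotrimer around cells. Col6a3 (rCG_55481) ran from 159 through 483 to 716 CPM in normoxia and from 479 through 628 to 728 CPM with IgG, and 1 of 12 IgG libraries lay above normoxia. Col6a3 rose by log2 0.47 ± 0.13 (fold 1.39, edgeR FDR = 0.0147), and by 0.34 without female normoxia 8 and 9. Its partners did not pass: Col6a1 ran from 148 through 430 to 639 CPM in normoxia and from 454 through 522 to 643 CPM with IgG (log2 0.31 ± 0.12, FDR = 0.0708), and Col6a2 from 104 through 403 to 606 CPM and from 418 through 497 to 614 CPM (0.34 ± 0.13, FDR = 0.0711). The lowest normoxic values of all 3 were those of female normoxia 9, and the normoxic and IgG ranges overlapped for each. The 95% intervals of the 3 chains, 0.20 to 0.74, 0.08 to 0.54 and 0.09 to 0.60, covered much the same span, so the pass of 1 chain does not set it apart from its partners.

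FACITs and the single-member classes. No FACIT passed the test, and the 5 tested had a median log2 difference of 0.35. Col12a1 (rCG_25086), which bridges type I fibrils, ran from 83.8 through 201 to 257 CPM in normoxia and from 113 through 201 to 239 CPM with IgG (log2 0.07 ± 0.13), so that its medians were alike and its ranges nested. Col14a1 had 0.04 ± 0.20 and Col16a1 0.35 ± 0.21, and the low-level type IX chains Col9a2 and Col9a3 had 0.61 ± 0.29 and 0.62 ± 0.42. Col9a1 failed the filter, with at most 8 counts and 0.912 CPM in any library. Col7a1 (rCG_25407), the anchoring fibril chain that ties epithelial basement membrane to the tissue beneath it, ran from 1.38 through 34.7 to 47.0 CPM in normoxia and from 23.1 through 42.4 to 50.6 CPM with IgG (log2 0.52 ± 0.25, FDR = 0.181). Col8a1, a short chain of vessel walls, ran from 3.34 through 9.0 to 11.5 CPM and from 4.37 through 8.38 to 14 CPM (−0.04 ± 0.16), the only estimate below 0. Col17a1, a hemidesmosome collagen of epithelia, ran from 6.21 through 14.2 to 18.6 CPM and from 12.3 through 16.3 to 18.3 CPM (0.15 ± 0.18). For all 3 single-member classes the arms overlapped over most of their range.

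The second comparison set hypoxia with APL-9796 against the same 12 normoxic libraries, so its values and those above share their reference and are set side by side only. In this comparison 12 members were higher and 0 lower, where 9.08% of all genes tested were higher and 8.93% lower, and the median log2 difference was 0.40 beside −0.02 over all genes. They were the 9 genes named for IgG and Col5a2 (0.31 ± 0.09, edgeR FDR = 0.0143), Col6a1 (0.37 ± 0.12, FDR = 0.0231) and Col6a2 (0.43 ± 0.13, FDR = 0.0173). Col4a1 ran from 1728 through 2291 to 3486 CPM and Col4a2 from 1223 through 1501 to 2088 CPM, all 12 libraries above the normoxic maximum of each gene (log2 1.29 ± 0.13 and 1.16 ± 0.15). Col15a1 ran from 289 through 307 to 356 CPM, again with all 12 libraries above normoxia (1.22 ± 0.10). Other rises were 0.96 ± 0.20 for Col1a1, 0.72 ± 0.16 for Col1a2, 0.65 ± 0.13 for Col18a1, 0.58 ± 0.13 for Col6a3, 0.49 ± 0.13 for Col3a1 and 0.40 ± 0.08 for Col4a5. Col4a4 ran from 559 through 671 to 775 CPM (0.17 ± 0.07, FDR = 0.0668). Leaving out female normoxia 8 and 9 again gave 12, where 8.31% of all genes were higher and 3.78% lower, with log2 differences of 1.18 (Col4a1), 1.12 (Col15a1), 1.03 (Col4a2) and 0.21 (Col5a2) to 0.79 (Col1a1) for the others.

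Whether the antibody altered collagen expression within hypoxia was asked by comparing APL-9796 with IgG. None of the 26 tested members passed in edgeR, DESeq2 or limma-voom, and 0% of all 15570 genes were called in edgeR, where 626 genes had an unadjusted p under 0.05. Among the members 1 had an unadjusted p under 0.05, Col4a4 (log2 0.14 ± 0.07, 95% interval 0.01 to 0.28, FDR = 0.967). Estimates ran from −0.62 ± 0.34 (Col11a1) to 0.20 ± 0.16 (Col8a1), with a median of 0.06 beside 0.00 over all genes. For the 3 genes with the widest rises in hypoxia the intervals of the difference were −0.26 to 0.14 (Col15a1), −0.14 to 0.37 (Col4a1) and −0.23 to 0.37 (Col4a2). The interval for Col1a1 was −0.29 to 0.51 and that for Col3a1 −0.30 to 0.23. These widths bound what the 12 libraries per arm could resolve, and they do not show that the antibodies acted alike.

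**Figure D3:**
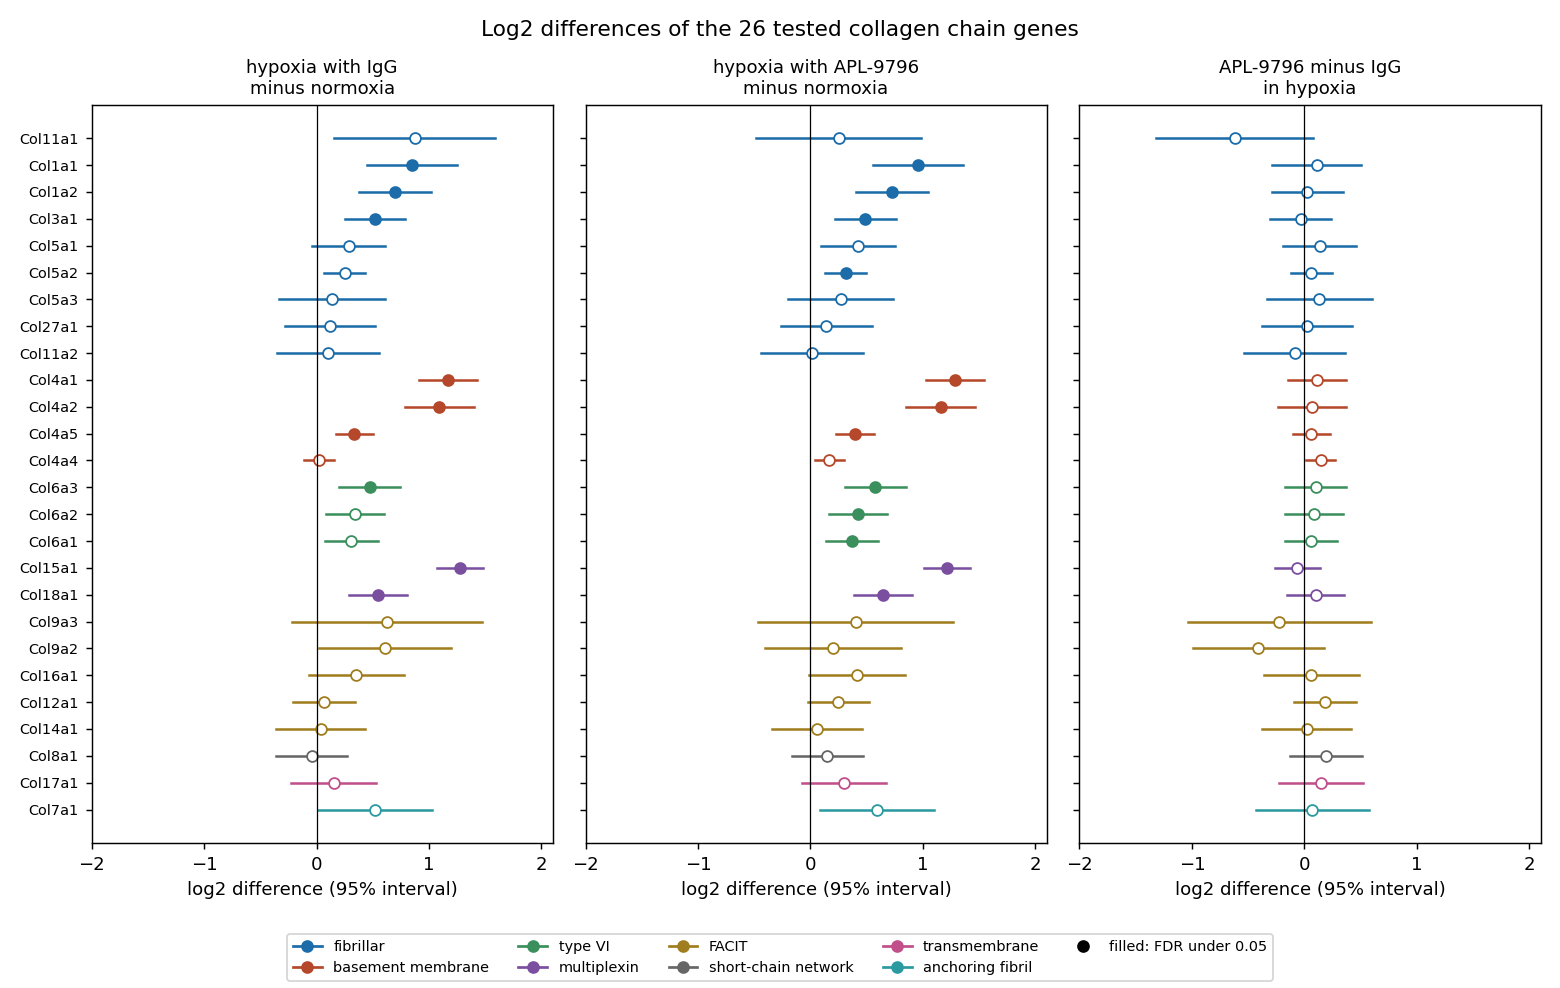
Points give log2 differences with 95% intervals for the 26 tested collagen chain genes in the comparisons of hypoxia with IgG and of hypoxia with APL-9796 with normoxia, and of APL-9796 with IgG. Filled points have an FDR under 0.05 (9, 12 and 0 genes), and colours mark the classes.

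The response was then taken apart by sex. In males 3 members were higher in hypoxia with IgG, Col15a1, Col4a1 and Col4a2, where 1.88% of all genes were higher and 1.22% lower. In females 11 were higher, where 7.23% of all genes were higher and 8.27% lower, and 0 members were lower in either sex. Without female normoxia 8 and 9 the female count was 9, where 4.13% of all genes were higher, and the male count 3, where 3.12% were. In that setting Col1a1, Col1a2, Col3a1 and Col6a3 had male log2 differences of 0.28, 0.29, 0.20 and 0.10 (edgeR FDR of 0.387 to 0.753). The female ones were 1.07, 0.82, 0.60 and 0.57 (edgeR FDR of 0.00507 to 0.0137). A gene that passes in 1 sex is not thereby shown to differ between the sexes, so the difference of the responses was tested as an interaction: 0 members passed in edgeR, where 0.00642% of all genes did with a wider and 0.00642% with a narrower response in females, and 8 members had an unadjusted p under 0.05. The widest of them was Col1a1, with a log2 response of 0.27 ± 0.28 in males and 1.43 ± 0.28 in females and a difference of 1.17 ± 0.39 (FDR = 0.175). That of Col15a1 was 0.97 ± 0.14 in males and 1.58 ± 0.14 in females, a difference of 0.61 ± 0.20 (FDR = 0.169). Without female normoxia 8 and 9 these differences were 0.79 (FDR = 0.466) for Col1a1 and 0.39 (FDR = 0.442) for Col15a1. DESeq2 called 0 members for the interaction and limma-voom with quality weights called 5 with a wider response in females (Col1a1, Col1a2, Col6a1, Col6a3 and Col15a1), where it called 1.36% of all genes wider and 1.41% narrower. Without female normoxia 7, edgeR called 4 of these, all but Col1a2, and the share of all genes called in that fit was not recorded.

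Levels of Col1a1 were also compared between the sexes within arms. In male normoxia Col1a1 ran from 473 through 654 to 802 CPM and in female normoxia from 72.6 through 280 to 413 CPM, so that every normoxic female lay below every normoxic male. Without female normoxia 8 and 9 the lowest female level was 234 CPM. In hypoxia with IgG the males ran from 537 through 708 to 1369 CPM and the females from 586 through 640 to 885 CPM, with the sexes overlapping. Smooth muscle and pericyte markers, summed over the 6 with a row, ran from 430 through 454 to 553 CPM in male normoxia and from 132 through 274 to 474 CPM in female normoxia. The lowest of these female sums was 265 CPM without female normoxia 8 and 9. With IgG the sums of these markers ran from 558 through 591 to 681 CPM in males and from 484 through 537 to 709 CPM in females. Fibroblast markers, summed over 8, had medians of 2525 and 2178 CPM in male and female normoxia and of 2584 and 2458 CPM with IgG. The part of these cell types in the difference was not tested. The sequencing runs were uneven as well, with 5 of 6 male and 2 of 6 female IgG libraries in run A, and with run as a term the differences were 1.04 (FDR = 0.25) for Col1a1 and 0.56 (FDR = 0.247) for Col15a1. Run C held 1 library, female normoxia 8, so the run term also sets that library aside.

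**Figure D4:**
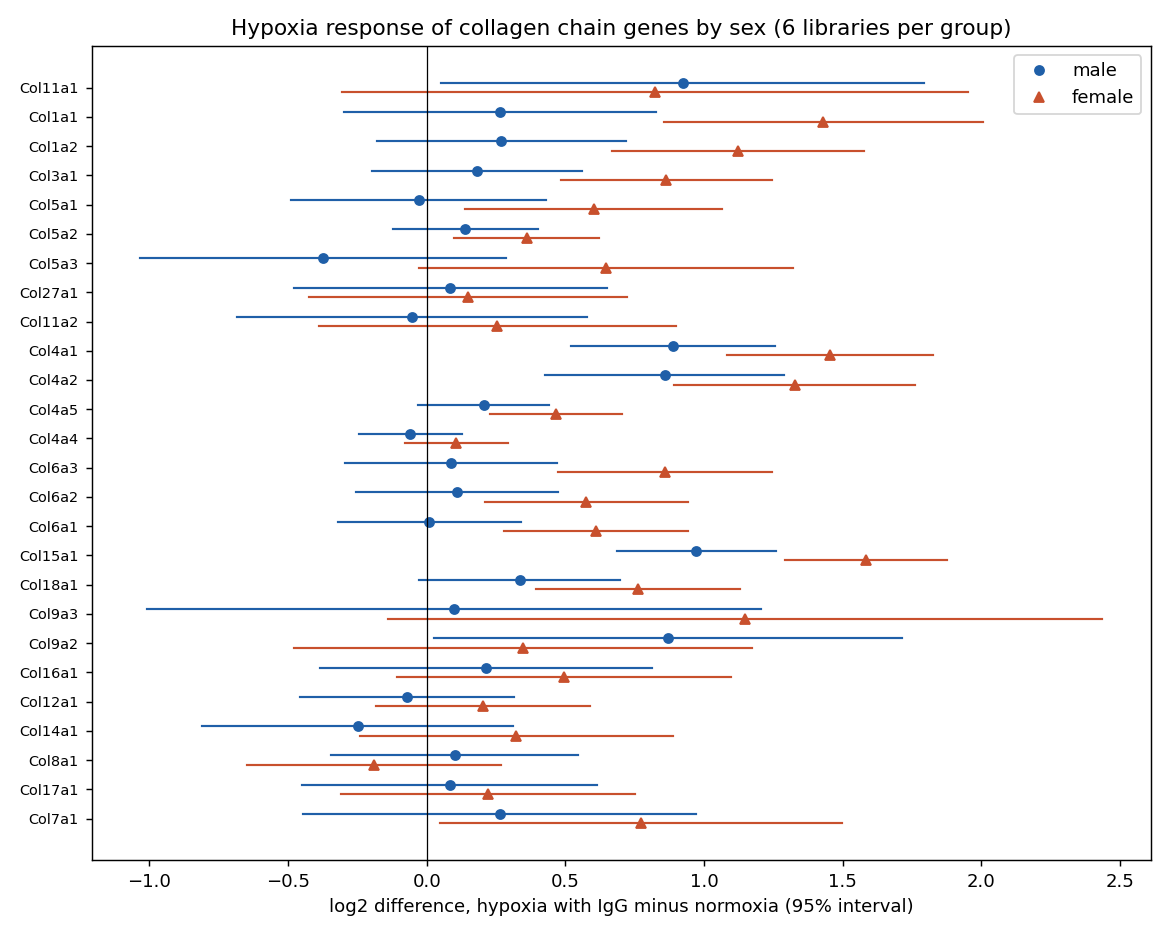
Log2 differences between hypoxia with IgG and normoxia with 95% intervals for each tested collagen chain gene, in males (circles) and females (triangles), 6 libraries per group. Intervals of Col4a1 and Col4a2 lie above 0 in both sexes, whereas that of Col1a1 includes 0 in males (−0.30 to 0.83) and not in females (0.86 to 2.00).

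With the 3 arms weighted equally, 3 members were lower in females and 0 higher, where 1.01% of all genes were lower and 0.636% higher. They were Col18a1 (log2 −0.55 ± 0.10, edgeR FDR = 0.00359), Col4a1 (−0.40 ± 0.10, FDR = 0.0374) and the low-level Col11a1 (−1.18 ± 0.29, FDR = 0.0272). Estimates were below 0 for 25 of 26 members, with a median of −0.25 beside −0.01 over all genes. Col18a1 ran from 71.0 through 91.5 to 110 CPM in male and from 19.3 through 52.1 to 79.4 CPM in female normoxia, from 95.9 through 113 to 138 CPM and from 69.2 through 86.2 to 103 CPM with IgG, and from 92.3 through 115 to 155 CPM and from 80.2 through 90.3 to 105 CPM with APL-9796. The sexes overlapped in each arm, with the female median below the lowest male value in all 3. The count depended on the method and on single libraries. DESeq2 called 7 lower, where it called 2.3% of all genes lower, and limma-voom 10, where it called 5.04%. With female normoxia 8 and 9 left out, 2 were called (0.889% of all genes), and in run A alone 0 (0.453%). Of the 36 fits without 1 library, 18 called 3 members, 10 called 2 and 3 called 4. The others called 10 (female normoxia 7 left out), 6 (male APL-9796 4), 5 (female APL-9796 8), 5 (female normoxia 9) and 1 (male APL-9796 1). Shares of all genes called were not recorded for these 36 fits. Col18a1 passed in all 36 of these fits and Col11a1 in 35. Col4a1 missed the threshold in 11 of them (FDR up to 0.0637) and with run as a term.

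Genes that act on collagen chains were examined from 3 lists. Of 18 tested genes for modification and folding of procollagen in the endoplasmic reticulum, 6 rose and 1 fell in hypoxia with IgG, with a median log2 difference of 0.13. Colgalt2, a collagen galactosyltransferase, rose from a median of 22.7 to one of 47.8 CPM, with all IgG libraries (39.4 CPM or more) above all normoxic ones (32.4 CPM or less), a log2 difference of 1.08. Plod1, a lysyl hydroxylase, rose by 0.39, Fkbp10, a prolyl isomerase of procollagen, by 0.47, Serpinh1, the collagen chaperone HSP47, by 0.31, and P3h3 and Crtap, members of the prolyl 3-hydroxylase family and of its complex, by 0.40 and 0.21. Fkbp14, another isomerase, fell by 0.36 on the log2 scale. The prolyl 4-hydroxylase subunits P4ha1 (0.10) and P4ha2 (0.14) did not pass. With APL-9796, 7 of the 18 were higher and 1 lower, against the same normoxic libraries. Leaving out female normoxia 8 and 9, 8 were higher and 0 lower with IgG, as Fkbp14 lost its call, and 7 and 1 with APL-9796.

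Of 10 tested genes for propeptide processing and fibril assembly, 4 rose and 1 fell, with a median of 0.20. Pcolce, which speeds up removal of the C-propeptide, rose by 0.33, Adamts2, the N-proteinase, by 0.37, and the matrix proteins Bgn and Sparc by 0.40 and 0.55. Sparc, a collagen-binding glycoprotein, ran from 2352 through 2539 to 3786 CPM in normoxia and from 3406 through 3971 to 4975 CPM with IgG, with some overlap. Fmod, which binds type I fibrils, fell by 0.37. Of 6 tested collagen receptors, 3 rose: Itga2, Itga11 and the endocytic receptor Mrc2, by 1.69, 0.53 and 0.51. Itga2, a subunit of the integrin alpha-2 beta-1, ran from 3.19 through 8.78 to 11.8 CPM in normoxia and from 15.6 through 27.4 to 38.9 CPM with IgG, with no overlap. Itga1, Itgb1 and Ddr1 did not pass. Without female normoxia 8 and 9 the counts with IgG were 4 higher and 1 lower for processing and assembly, and 4 and 0 for the receptors, Itgb1 being the added gene. In the comparison of APL-9796 with IgG 0 genes of these 3 lists passed in edgeR.

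Markers of cell types that lay down collagen, or that a lung sample can carry along, were set beside the collagen genes, first in the comparison of hypoxia with IgG and normoxia. Of 10 listed smooth muscle and pericyte markers 6 were matched to a row, and Acta2, Myh11, Tagln and Pdgfrb were not. Among the 6, 5 were higher (Cnn1, Des, Actg2, Notch3 and Kcnj8), where 6.31% of all genes were. The sum of the 6 ran from 132 through 436 to 553 CPM in normoxia and from 484 through 577 to 709 CPM with IgG. Fibroblast markers were higher for 2 of 8 (Scara5 and Gli1), with sums of 2081 to 2831 CPM and of 2225 to 2849 CPM. Mesothelial markers were higher or lower for 0 of 5 (median sums of 412 and 386 CPM), cardiac muscle markers for 0 of 5 (12.1 to 292 and 79.2 to 1117 CPM) and skeletal muscle markers for 0 of 4 (5.15 to 35.3 and 13.6 to 88.3 CPM). Adipocyte markers were higher for 4 of 7 (88.2 to 203 and 143 to 646 CPM), with male IgG 6 highest. The highest cardiac and skeletal muscle sums with IgG were also those of male IgG 6. Among female IgG libraries, female IgG 11 was highest in cardiac muscle (679 CPM) and adipocyte markers (371 CPM). Lung markers were higher for 2 of 10 (Pecam1 and Cdh5) and lower for 4 (Sftpc, Sftpa1, Hopx and Scgb1a1). Without female normoxia 8 and 9 the smooth muscle and pericyte count was again 5 of 6, fibroblast markers were higher for 1 and adipocyte markers for 3, and lung markers were higher for 2 and lower for 0.

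Against the same normoxic libraries, the APL-9796 arm was higher for 6 of 6 smooth muscle and pericyte markers (median log2 difference 0.84), whose sum ran from 522 through 683 to 862 CPM. Skeletal muscle markers were higher for 3 of 4 (Acta1, Tnnt3 and Mybpc1, median of the 4 log2 differences 2.34), with a median sum of 27.9 CPM and a highest of 2413 CPM in male APL-9796 5. Fibroblast markers were higher for 1 of 8, adipocyte markers for 1 of 7 and lung markers for 2 of 10, and lung markers were lower for 5. Mesothelial and cardiac muscle markers were higher or lower for 0 of 5 each, and Cytl1 was again the 1 cartilage marker of 3 to be lower. Smooth muscle and pericyte markers were higher for 6 of 6 with female normoxia 8 and 9 left out, skeletal muscle markers for 1 of 4 and lung markers for 2, with 2 lower. No marker with a row was at 0 in every library of an arm. The part of these cell types in the collagen differences was not tested. A fit left out 3 libraries, namely male APL-9796 5 (highest of all in skeletal muscle markers), male IgG 6 (highest of its arm in adipocyte and cardiac muscle markers) and female IgG 11 (lowest collagen sum of its arm). Then 10 members were higher with IgG, where 6.15% of all genes were higher, and 13 with APL-9796, where 10.2% were. Female IgG 11 and male IgG 6 held the lowest and the highest collagen sum of the IgG arm. Leaving them out acts on the collagen levels themselves, so these counts are no independent check.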

How the data were processed

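RNA of lung was sequenced in 36 libraries, and the deposited file, per its header and values, held raw read counts per gene that the authors had not normalized. Of the authors' steps, the submitters' processing notes name DESeq2 1.24.0; aligner, counter, strandedness, annotation and build were not given in the sources used here. Reads of overlapping, antisense or near-identical genes may therefore be shared. Groups came from the sample labels, which a deposited information sheet matched in 36 of 36 libraries; a line of totals (0.0% of gene counts) was left out. Within groups, Spearman correlations across genes were 0.962 to 0.983 over 90 pairs, and every pair differed by more than counting noise (chi-square per gene at least 3.73).

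CPM was computed with TMM-scaled totals. Differences were tested with the edgeR 4.0.16 quasi-likelihood test in R 4.3.3 (filterByExpr, robust fit, 6 sex-by-arm groups, sexes weighted equally), with Benjamini-Hochberg FDR over 15570 genes and a threshold of 0.05; 95% intervals come from that fit. The script was tested on simulated data. Python 3.11.15, pandas 2.3.3 and matplotlib 3.10.9 made tables and plots. Precision follows from the totals, 6.07 to 20.8 M counts, and the limit of 3 counts for a count of 0 covers counting error only.

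Every member by name was accounted for. Levels by library are given for members past the threshold in hypoxia with IgG, their heterotrimer partners and, in each class, the member with the highest mean CPM; genes of the pathway lists are named where past it in the same comparison, with a few others chosen after their values were seen. Members, lists and the libraries left out were chosen with earlier results of these data known. Alternatives were RLE size factors, no filter, limma-voom (limma 3.58.1, quality weights), DESeq2 1.42.0, a filter of 1 CPM in 12 libraries, the compared groups alone, a replicate block, sequencing run as a term, run A alone, 2 sets of libraries left out, and each library left out. Runs were inferred from a number and a code in the read file names. Run C held only female normoxia 8, so the run term also sets that library aside. Pathway and marker lists without female normoxia 8 and 9 were added after seeing the data.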

Additional observations from a re-analysis of the deposited data

Results flagged for a closer look

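Within groups of 6 libraries, 13 of 156 combinations of a member and a group held a library set far from the others, where chance alone flags about 5% of groups. Male normoxia 3 was lowest of its group for Col5a2 (406 CPM, the next being 498), Col16a1 (62.6 against 127 CPM), Col27a1 (9.45 against 15.5 CPM) and Col11a2 (3.09 against 7.28 CPM). Male IgG 6 was highest for Col1a1 (1369 against 807 CPM), Col5a1 (171 against 134 CPM) and Col11a1 (3.55 against 1.37 CPM). It also had the most Col2a1 and the highest adipocyte marker sum of the IgG arm. The Col17a1 level of male APL-9796 5 was 47.4 CPM against 17.7 CPM in the next library, and its skeletal muscle markers summed to 2413 CPM. Male normoxia 1 was highest for Col17a1 (18.6 against 14.3 CPM). Among females, Col3a1 was highest in female IgG 7 (2983 against 2322 CPM), Col12a1 lowest in female IgG 11 (113 against 195 CPM), Col8a1 lowest in female normoxia 9 (3.34 against 7.57 CPM) and Col9a2 lowest in female IgG 10 (1.66 against 3.58 CPM).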

How the results depend on the processing

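No alternative reversed a result: of 1121 values for the 24 results on single members that passed the threshold, 1097 kept direction and call and 24 fell short of the threshold. Most of these values came from the 36 fits without 1 library, which share all other libraries with the main fit. Only results past the threshold were followed, so the tally is no independent check. The count of members higher with IgG was 9 to 12 over the 36 fits without 1 library, for which the share of all genes was not recorded. Over the other alternatives it was 9 to 12, where 4.36% to 7.85% of all genes were higher, except 4 in run A alone, where 2.88% were. Col1a1, Col1a2, Col3a1, Col6a3 and Col18a1 lost their call there, and the cause was not tested. Run A held 2 female IgG and 3 female normoxic libraries, female normoxia 9 among them. With APL-9796 the count of members higher was 12 to 15 over the 36 fits, again without a recorded share. Over the other alternatives it was 10 to 15, where 6.04% to 11.9% of all genes were higher. The 10 came from run A alone, where 6.63% were. For the sex difference in response, limma-voom called 5 members, and the fits without 1 library called 0 to 4. For females against males, DESeq2 called 7 members lower, limma-voom 10 and run A alone 0, and the fits without 1 library called 1 to 10; the cause was not tested. The title numbers gave no clear sign of pairs: of 36 correlations of same-numbered deviations 9 exceeded 0.1 (range −0.216 to 0.254). Each library was also matched to the 6 libraries of its sex in each other arm. In 14 of 72 such matches the library of the same number correlated best. With the replicate block, 9 members were higher with IgG (6.22% of all genes) and 12 with APL-9796 (8.86%). Number is nested in sex, so that the block could not be fitted to the comparison of the sexes. Depth limits Col2a1, Col9a1, Col11a1 and Col9a3 most, and no fit separates hypoxia from IgG.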

Other observations

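Rows of 4 further collagen genes carry other names in the table and were matched through gene number or older symbol, so they are no members by the naming rule. Col4a3 (rCG_24000), the partner of the Col4a4 chain, ran from 291 through 506 to 598 CPM in normoxia and from 305 through 447 to 549 CPM in hypoxia with IgG (log2 −0.14 ± 0.09, edgeR FDR = 0.369), with the arms overlapping. Its start lies 412 bases from that of Col4a4, and the ratio of Col4a4 to Col4a3 counts was 1.21 ± 0.126 in normoxia, 1.35 ± 0.112 with IgG and 1.34 ± 0.0744 with APL-9796 (SD, n = 12). Col6a4 (rCG_25359), a type VI chain gene, was the one collagen row examined that fell: it ran from 11.1 through 50.6 to 82.6 CPM in normoxia, from 6.55 through 15.4 to 32 CPM with IgG and from 10.1 through 18.6 to 37.6 CPM with APL-9796. Outside female normoxia 8 and 9 the lowest normoxic level of Col6a4 was 37.5 CPM, above every IgG library. Col13a1 and Col20a1 had log2 differences of 0.22 ± 0.19 and −0.08 ± 0.11 with IgG and did not pass.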
